A study of Mus musculus with 2 samples.

Results

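The cells described are 472 macrophages of mouse skin that carry the transcripts Folr2, Cd163, Lyve1, Cd209f, Cbr2 and Ednrb in combination. They were chosen by a rule on UMIs, the unique molecular identifiers that count the RNA molecules of a gene in a cell. A cell had to hold at least 500 genes and 1000 UMIs with at most 10% of its UMIs on mitochondrial genes, at least 15 UMIs of C1qa, C1qb and C1qc per 10000, a UMI of at least 4 of the 6 markers, and under 20 UMIs of Col1a1, Col1a2 and Col3a1 per 10000. Of the 5257 barcodes deposited, 3797 passed the filter on depth and mitochondrial share, 1120 of these met the C1q and collagen limits, and 472 of those had 4 markers or more. The members made up 42.1% of the C1q-positive cells (95% exact binomial interval 39.2 to 45.1%) and 12.4% of the filtered cells. The other 648 C1q-positive cells are the comparison throughout. The members are called resident macrophages as a working name, since residence in the tissue was not measured.

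The study followed skin macrophages over age. For this experiment, dorsal skin of wild-type (WT) male mice was digested, cells stained for F4/80 with high MHC class II were sorted, and 3' droplet libraries were sequenced. One library came from mice of 9 weeks and the other from mice of 108 weeks, each from the pooled cells of 2 mice, with no treatment in either. The deposited matrix pools both libraries and separates them by a barcode suffix, 1 or 2, which the labels and the study's methods do not assign to an age. Ages are therefore not compared, and the suffixes are given as 2 libraries of unknown age. The sort took cells by F4/80 and class II protein, not by RNA.

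Tissue macrophages that express Lyve1, Folr2 and Cd163 are known from many organs, where they lie along blood vessels and take up debris and macromolecules. FOLR2 is a folate receptor, CD163 the scavenger receptor for haptoglobin and haemoglobin complexes, LYVE1 a hyaluronan receptor shared with lymphatic endothelium, and CD209F a C-type lectin. CBR2 is a carbonyl reductase, and EDNRB is the receptor of endothelins, also known from melanocytes. In the dermis such cells are set against macrophages and monocyte-derived cells with more CCR2 and class II, which present antigen.

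The suffix 1 library held 388 members and the suffix 2 library 84, which were 43.4% and 37.0% of their C1q-positive cells but 16.2% and 6.0% of all their filtered cells. Median depth was alike, with 9570 and 11545 UMIs per member and 9178 and 10594 UMIs per other C1q-positive cell. The median share of mitochondrial UMIs was 5.54% in the members and 4.10% in the others, and its part in the results was not tested. In all, the members gave 5820838 UMIs and the other C1q-positive cells 7029484. Levels below are CPM, the UMIs of a gene per 1000000 UMIs of the group, and a log2 ratio is that of the members' level over the level in the other C1q-positive cells. Their 95% intervals, Poisson for levels and binomial for ratios, cover counting error only. With 1 library per age and cells that are not replicates, there is no test and no p-value. The libraries shared 1 barcode sequence, and no member carried it.

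Because the rule used the markers, their levels describe the choice and support nothing. Folr2 and Cbr2 were found in 98.1% and 98.3% of members, Ednrb in 89.0%, Cd163 in 84.7% and Cd209f in 73.7%. Lyve1 was the rarest, with a UMI in 238 of 472 members (50.4%) against 8 of 648 other C1q-positive cells. All 6 markers were seen together in 127 members, and 111 had every marker but Lyve1. Lyve1, the gene that gives such cells their usual name, was thus not seen in the remaining members at this depth. Lyve1 (chr7:110850607-110863239, minus strand of GRCm38) stood at 148 CPM in the suffix 1 members and 220 CPM in the suffix 2 members, against 4.02 and 0 CPM in the others. Cd209f had 508 CPM in the members and 30.7 CPM in the others, Ednrb 601 and 54.3 CPM, Folr2 656 and 159 CPM, Cd163 573 and 156 CPM, and Cbr2 590 and 216 CPM.

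Whether the markers occur together can be described by leaving each out of its own rule. The members were chosen with earlier results of these data known, so this is a description only. Among C1q-positive cells with at least 3 of the other 5 markers, Lyve1 stood at 127 CPM, against 3.96 CPM in the cells below that number (log2 ratio 5.0). The same ratio was 3.37 for Cd209f, 2.99 for Ednrb, 1.94 for Folr2, 1.53 for Cd163 and 1.42 for Cbr2. Every marker was higher in both libraries, with Cd209f at 4.09 and 2.44 and Ednrb at 2.88 and 3.44 on the log2 scale. Cbr2, Cd163 and Folr2 were also found in 51.3%, 41.5% and 40.9% of the cells with fewer than 3 of the other markers.

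The label was checked against macrophage and other markers. Of 14 general macrophage markers, 10 had a log2 ratio below 0, with a median of -0.41, and Cx3cr1 was called lower (-2.92). Trem2, a lipid receptor, stood at 48.6 CPM in the members and 99.9 CPM in the others (-1.04) and was not called. Adgre1, which encodes F4/80, stood at 529 and 489 CPM, Cd68 at 557 and 587 CPM, and Csf1r, the receptor of the growth factor CSF1, at 816 and 561 CPM. C1qa stood at 2702 and 2311 CPM, but the rule required C1q UMIs of both groups, so its level describes the choice. Melanocyte genes Pmel and Tyr were at 0 in the members, although Ednrb is also expressed by melanocytes. The T cell genes Cd3d, Cd3e and Trac and the B cell genes Cd79a and Pax5 were likewise at 0. Other genes of these lists were not. Mitf of the melanocyte list stood at 28.9 CPM in the members and 31.2 CPM in the others. Ighm of the B cell list stood at 188 and 129 CPM and was seen in 79.2% of members and 57.4% of others. The summed level of 11 fibroblast markers was 421 CPM in the members, 385 CPM in the others and 52959 CPM in the 473 cells with over 100 collagen UMIs per 10000 (collagen-high cells). Their part in the results below was not tested.

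Lymphatic endothelial genes need a separate word, because LYVE1 marks that cell type too. Ccl21a, Nts and Mmrn1 were among the genes with the largest log2 ratios, but most of their UMIs sat in a pair of cells. The 7 markers summed to 168 CPM in the members, 36 CPM in the others and 432 CPM in collagen-high cells. In collagen-high cells Pdpn alone gave 407 CPM of that sum, and Ccl21a stood at 3.02 CPM. One member of the suffix 1 library (47554 UMIs) carried 7 of 7 lymphatic endothelial markers with 461 UMIs of Ccl21a, and one of the suffix 2 library (14644 UMIs) carried 6 of 7 with 169. Without the cells with 3 or more such markers, the log2 ratio of Ccl21a went from 4.99 to 0.39 and that of Nts from 4.90 to 0.28. That of Lyve1 stayed at 5.79, and those 2 members held 5 and 0 of its 957 UMIs. Nearly all Lyve1 UMIs thus lay outside those cells. The 11 vascular endothelial markers summed to 160 CPM in the members and 248 CPM in the others.

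Across all genes, a gene was called when its level differed 2-fold or more in the same direction in each library. Of 9060 genes with at least 50 UMIs over the C1q-positive cells, rule genes left out, 178 (1.96%) were higher in the members and 69 (0.762%) lower. The median log2 ratio over these genes was 0.03, and -0.02 with totals that leave out mitochondrial, ribosomal and the 50 most abundant genes. In 170 of the 178 higher and 63 of the 69 lower genes no single cell held more than 20% of the UMIs of the higher group. Without the 20 members and 23 others that carried 5 or more markers of 1 other cell type, an alternative added after the data were seen, the counts were 179 and 65, with 152 and 47 genes shared. The rule chose these cells on the same counts, so the counts are a description.

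**Figure D1:**
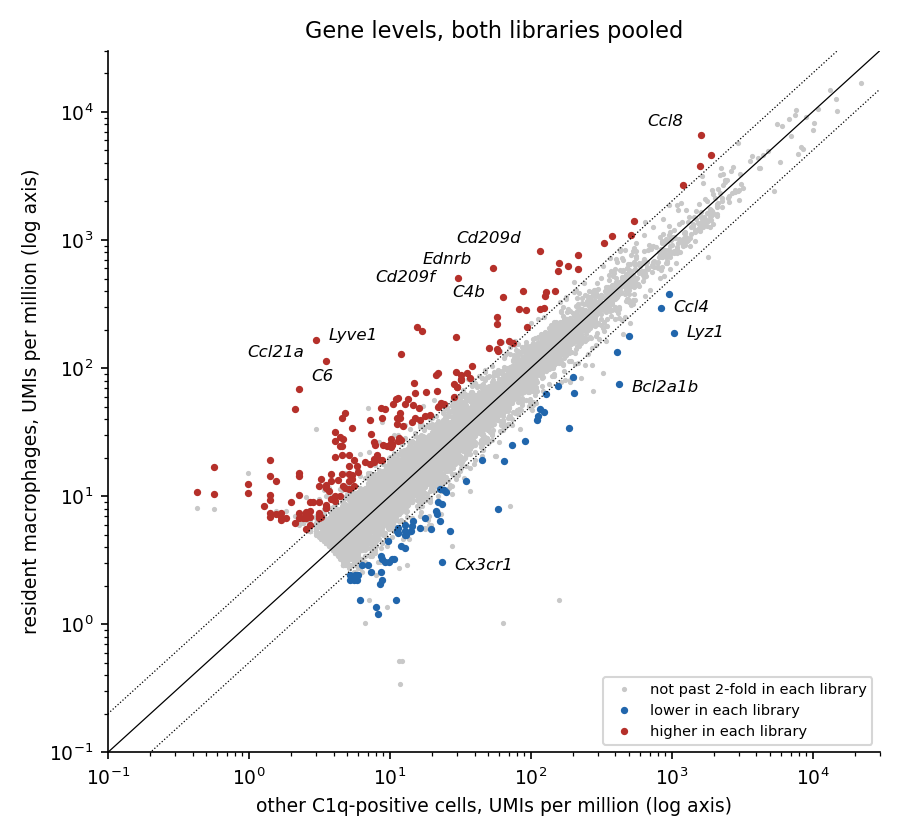
Level of each gene with at least 50 UMIs in the resident macrophages (y axis, CPM, log) against the other C1q-positive cells (x axis, CPM, log), both libraries pooled. Red and blue points passed 2-fold in each library (the 6 rule markers are among the red), the solid line marks equal levels and the dotted lines 2-fold. Most red points lie below 1000 CPM, with Ccl8 at 6649 against 1619 far above them.

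The Cd209 genes, a family of C-type lectins that bind sugars on microbes and on host proteins, were mostly higher. The 7 genes lie together on chromosome 8, and all 7 had a log2 ratio above 0 in the pooled libraries, with a median of 2.81. Of the 7, 5 passed 2-fold in each library, Cd209f of the rule among them, against 1.96% of all genes called higher. Cd209g stood at 195 and 250 CPM in the members of the suffix 1 and 2 libraries and at 9.01 and 34.8 CPM in the others, a pooled log2 ratio of 3.73 (3.45 to 4.03). Cd209b stood at 209 and 146 CPM against 16.7 and 17.7 CPM (3.52, 3.25 to 3.81). Every library's members lay above both libraries' other cells in these genes.

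Cd209d had the highest level of the family, 826 and 783 CPM against 105 and 148 CPM (log2 ratio 2.81, 2.71 to 2.92). Cd209a, often used as a dendritic cell marker, stood at 794 and 669 CPM against 217 and 219 CPM (1.82, 1.73 to 1.90). Cd209e and Cd209c were lower, at 56.9 and 11.5 CPM in the members, and missed 2-fold in the suffix 2 library. After each cell was thinned to 2000 UMIs, Cd209d was seen in 65.2% of members (60.6 to 69.5%), 12.4% of other C1q-positive cells and 1.11% of collagen-high cells, which should lack it. For Cd209g the shares were 32.3%, 2.61% and 0 of 452 cells, which allows up to 0.813%, and for Cd209b 26.5%, 4.24% and 0.221%. Unthinned, Cd209d was seen in 84.1% of members and 27.8% of others. Reads from genes this similar can be split between them by the counting, so the values of single Cd209 genes are uncertain.

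**Figure D2:**
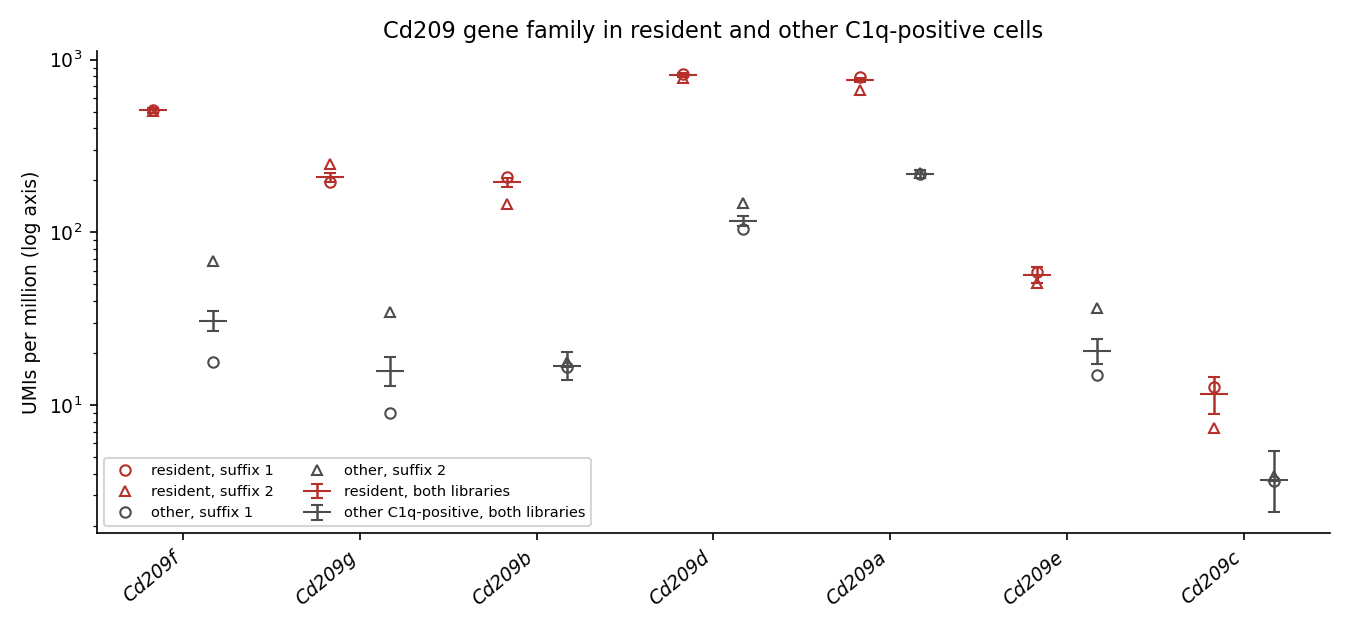
Levels of the 7 Cd209 genes in CPM (log axis) in resident macrophages (red) and other C1q-positive cells (grey). Bars give the pooled level with its 95% Poisson interval, circles the suffix 1 library and triangles the suffix 2 library. For all 7 genes both red symbols lie above both grey ones, and the gap is smallest for Cd209e in the suffix 2 library.

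The promoters of the 5 called Cd209 genes are shown because these neighbouring genes were higher together. Each is RefSeq sequence of GRCm38.p6, 250 bases before to 50 after the start, on the gene's strand. Capitals mark the word TTCCGG or its complement on the other strand, read off these sequences after seeing them.
Cd209f: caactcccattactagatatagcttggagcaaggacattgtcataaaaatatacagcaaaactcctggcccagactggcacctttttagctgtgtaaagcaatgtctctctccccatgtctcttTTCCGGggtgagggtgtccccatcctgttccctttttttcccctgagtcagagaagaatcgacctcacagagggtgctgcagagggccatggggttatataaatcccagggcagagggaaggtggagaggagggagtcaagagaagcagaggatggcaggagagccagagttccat
Cd209g: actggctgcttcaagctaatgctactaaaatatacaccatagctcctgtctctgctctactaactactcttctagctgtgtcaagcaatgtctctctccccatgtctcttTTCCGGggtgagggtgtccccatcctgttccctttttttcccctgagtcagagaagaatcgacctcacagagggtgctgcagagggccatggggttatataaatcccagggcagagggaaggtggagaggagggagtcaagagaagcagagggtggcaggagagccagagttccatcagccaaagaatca
Cd209b: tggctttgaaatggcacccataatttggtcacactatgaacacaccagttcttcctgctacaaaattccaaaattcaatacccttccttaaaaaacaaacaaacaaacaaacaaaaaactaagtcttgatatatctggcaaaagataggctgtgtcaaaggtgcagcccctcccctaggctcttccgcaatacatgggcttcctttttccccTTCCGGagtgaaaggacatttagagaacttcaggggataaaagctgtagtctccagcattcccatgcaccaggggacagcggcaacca
Cd209d: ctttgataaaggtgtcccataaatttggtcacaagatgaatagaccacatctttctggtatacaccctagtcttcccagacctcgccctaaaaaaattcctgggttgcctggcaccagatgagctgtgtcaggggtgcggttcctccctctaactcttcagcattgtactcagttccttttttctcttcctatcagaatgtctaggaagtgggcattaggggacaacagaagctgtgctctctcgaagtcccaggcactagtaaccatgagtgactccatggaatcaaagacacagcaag
Cd209a: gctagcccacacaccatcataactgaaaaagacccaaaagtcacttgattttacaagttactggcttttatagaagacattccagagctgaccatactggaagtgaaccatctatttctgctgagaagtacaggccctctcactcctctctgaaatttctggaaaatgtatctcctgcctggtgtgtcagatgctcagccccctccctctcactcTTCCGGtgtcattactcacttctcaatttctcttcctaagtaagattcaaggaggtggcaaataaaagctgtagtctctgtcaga
The windows are chr8:4105715-4106014 (minus strand) for Cd209f, chr8:4134486-4134785 (plus strand) for Cd209g, and chr8:3926792-3927091, chr8:3878450-3878749 and chr8:3748935-3749234 (all minus strand) for Cd209b, Cd209d and Cd209a. Cd209f and Cd209g, which lie in opposite directions, shared an unbroken run of 180 bases, while the longest run in any other pair of the 7 was 17 bases. Aligned at that run, 238 of 286 bases (83.2%) were equal. The word was found once in the windows of Cd209f, Cd209g, Cd209b, Cd209a and Cd209e and was not in those of Cd209d and Cd209c. It was in 14.9% of all 32851 promoters, in 14.1% of the 192 promoters matched to 137 of the genes called higher, and in 29.2% of the promoters of all genes tested. A match describes the letters in this window, not a bound site.

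Other receptors for uptake were higher in part. Of 14 measured scavenger and endocytic receptors, 4 were higher and 1 lower in each library, against 1.96% and 0.762% of all genes. Their median log2 ratio was 0.25 against 0.03 over all genes. Clec10a, a lectin for galactose-type sugars, stood at 969 and 840 CPM in the members and 351 and 277 CPM in the others (1.5, 1.43 to 1.57). Stab1, a receptor for modified proteins and dying cells, stood at 209 and 94.3 CPM in the pooled libraries (1.15, 1.01 to 1.29). Fcna, a secreted ficolin that starts the lectin pathway of complement, stood at 45.0 and 4.84 CPM (3.22, 2.70 to 3.78), and Colec12, a collectin receptor, at 41.1 and 4.55 CPM (3.17, 2.64 to 3.75). Colec12 was seen in 17.3% of thinned collagen-high cells and in 8.17% of members, so that its level in members cannot be set against those cells as background. The mannose receptor Mrc1 was high in both groups, 1864 against 961 CPM, and did not pass 2-fold in the suffix 2 library (1605 against 941 CPM). Olr1, a receptor for oxidised lipoprotein, was the lower gene, at 1.55 and 6.12 CPM, and 1 cell held 22.2% of its UMIs in the members. The call was absent without the cells carrying 5 or more markers of another cell type.

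Complement genes divided. Of 14 measured, 3 were higher and none lower, against 1.96% and 0.762% of all genes. Their median log2 ratio was 0.44. C4b, which encodes complement C4, stood at 380 and 300.5 CPM in the members and 61.9 and 67.3 CPM in the others (2.51, 2.36 to 2.66). Cd55, a membrane inhibitor of complement, stood at 17.7 and 65.7 CPM against 2.30 and 10.5 CPM (2.71, 2.15 to 3.31). In Cd55 the suffix 1 members and the suffix 2 others stood 17.7 against 10.5 CPM, the nearest pair. The receptors C5ar1 (820 against 535 CPM) and C3ar1 (650 against 487 CPM) were near in both groups, and C3 was low, 28.5 and 39.0 CPM. C6, a part of the membrane attack complex that was named as one of the highest ratios, stood at 77.5 and 39.1 CPM against 1.34 and 4.97 CPM (4.91, 4.2 to 5.73). C6 was seen in 37.3% of members and 1.54% of others, and after thinning in 11.2%, 0.652% and, in collagen-high cells, 2.43%.

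C4b is also expressed by other skin cells. After thinning it was seen in 47.5% of members, 9.79% of others and 40% of collagen-high cells. The level of C4b in collagen-high cells, 395 CPM, was near that of the members, 361 CPM. How much of the members' C4b came from other cells was not tested.

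**Figure D3:**
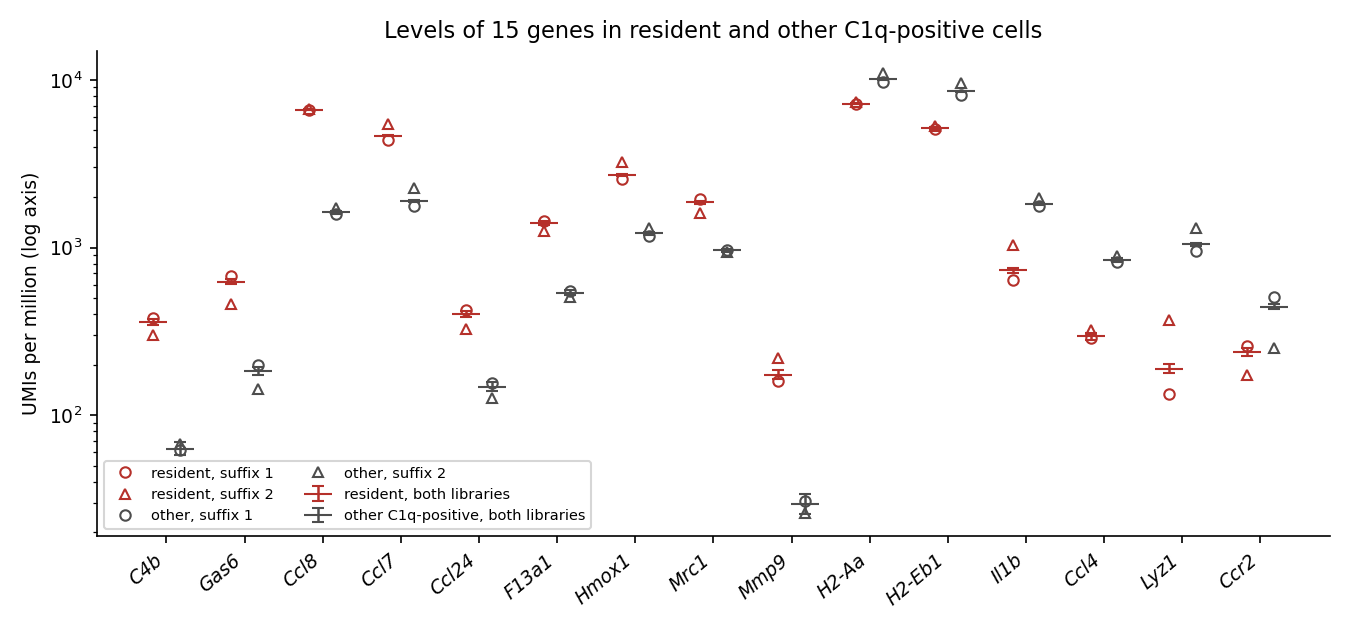
Levels of 15 genes in CPM (log axis) in resident macrophages (red) and other C1q-positive cells (grey), drawn as in the plot of the Cd209 genes. From C4b to Mmp9 both red symbols lie above both grey ones, from H2-Aa to Lyz1 they lie below, and for Ccr2 the suffix 1 members (258) and the suffix 2 others (253) are level.

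Among called genes, the chemokines Ccl8 and Ccl7 had the highest levels. Of 20 measured, 5 were higher and 2 lower, against 1.96% and 0.762% of all genes. Their median log2 ratio was -0.10. It became 0.55 without the cells carrying 5 or more markers of another cell type and 0.16 as a mean over cells. Ccl8, a ligand that draws monocytes and T cells, stood at 6635 and 6694 CPM in the members and 1584 and 1721 CPM in the others (2.04, 2.01 to 2.07). It was seen in 84.9% of thinned members (81.4 to 88.1%), 27.7% of others and 7.52% of collagen-high cells. Ccl7, a related monocyte chemokine, stood at 4402 and 5456 CPM against 1768 and 2268 CPM (1.29, 1.26 to 1.32), and 59.1% of thinned collagen-high cells carried it too. Ccl24, an eosinophil chemokine, stood at 422 and 326 CPM against 155 and 128 CPM (1.43, 1.33 to 1.54). Ccl2, the main ligand of CCR2, was at 3153 against 1656 CPM and missed 2-fold in the suffix 1 library. Ccl11, the fifth higher gene, had a log2 ratio of 1.43 with 44.7% of the members' UMIs in 1 cell.

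Cxcl13, a chemokine for B cells, was uneven. It stood at 15.7 CPM in the suffix 1 members and 505 CPM in the suffix 2 members, with 1.72 and 41.4 CPM in the others. Only 47 of the 472 members carried a UMI of it, and 1 cell held 14.6% of its UMIs. The suffix 2 others thus had more Cxcl13 than the suffix 1 members, and the ratio within each library was 3.18 and 3.61. On the lower side, Ccl4 stood at 287 and 324 CPM in the members and 824 and 885 CPM in the others (-1.51, -1.58 to -1.43). Ccl5 stood at 20.2 and 14.0 CPM against 49.3 and 110 CPM (-1.80, -2.11 to -1.49). Both draw T cells and monocytes. Ccl3, the close relative of Ccl4, stood at 184 against 451 CPM and missed 2-fold in the suffix 2 library.

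Of 18 growth factor genes measured, 5 were higher and 1 lower (median log2 ratio 0.48), against 1.96% and 0.762% of all genes. Gas6, the bridge between dying cells and the TAM receptors MERTK and AXL, stood at 675 and 458 CPM in the members and 199 and 144 CPM in the others (1.76, 1.67 to 1.85), and at 1047 CPM in collagen-high cells. Pdgfc, a platelet-derived growth factor that acts on fibroblasts, stood at 27.5 and 24.4 CPM against 4.02 and 4.42 CPM (2.70, 2.12 to 3.32). Hbegf, a ligand of the EGF receptor, stood at 296 against 123 CPM (1.26), Igfbp4, a binding protein of insulin-like growth factors, at 292 against 116 CPM (1.33), and Vegfb at 26.8 against 11.5 CPM (1.22). Csf1 was lower, 5.84 against 14.4 CPM (-1.30, -1.90 to -0.73). Vegfa stood at 51.7 against 104 CPM and missed 2-fold in the suffix 1 library.

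Of 24 matrix and protease genes measured, 4 were higher and none lower, against 1.96% and 0.762% of all genes. As a mean over cells, however, 3 were lower. Mmp9, a gelatinase, stood at 161 and 221 CPM in the members and 30.9 and 25.9 CPM in the others (2.56, 2.34 to 2.78), and 0 of 452 thinned collagen-high cells carried it, which allows up to 0.813%. F13a1, the transglutaminase subunit of factor XIII, stood at 1443 and 1261 CPM against 549 and 510 CPM (1.38, 1.32 to 1.43) and was seen in 99.6% of members. Serpinb6a, a protease inhibitor, stood at 394 against 128 CPM and Adam33 at 12.0 against 3.13 CPM. Fn1, which encodes fibronectin, stood at 64.7 and 178 CPM in the members and 362 and 222 CPM in the others, so that it was not called, with ratios of -2.48 and -0.32.

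Among 21 genes of the uptake of apoptotic cells, 2 were higher and 1 lower, against 1.96% and 0.762% of all genes. Their median log2 ratio of -0.15 became 0.21 without the cells carrying 5 or more markers of another cell type. Gas6 and Stab1 were the higher ones, and the GAS6 receptor Axl the lower, at 45.7 and 31.0 CPM in the members and 127 and 74.5 CPM in the others (-1.43, -1.64 to -1.22). Mertk, the other GAS6 receptor of macrophages, stood at 51.0 against 27.7 CPM and did not pass 2-fold. Ligand and receptor were thus called in opposite directions. Timd4, a receptor for phosphatidylserine that often marks long-lived macrophages, differed between the libraries. It stood at 48.4 CPM in the suffix 1 members against 7.47 CPM in the others, but at 3.69 against 12.7 CPM in the suffix 2 library, ratios of 2.69 and -1.78. Over both libraries, 22.0% of members carried Timd4.

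Of 15 iron and haem genes, 3 were higher and none lower (median log2 ratio 0.53), against 1.96% and 0.762% of all genes. Hmox1, which encodes haem oxygenase, stood at 2548 and 3222 CPM in the members and 1179 and 1309 CPM in the others (1.16, 1.12 to 1.2). Tfrc, the transferrin receptor, stood at 86.7 and 69.4 CPM against 33.7 and 27.6 CPM (1.36, 1.13 to 1.6). Cp, which encodes the ferroxidase ceruloplasmin, stood at 59.6 and 53.2 CPM against 13.2 and 6.62 CPM (2.33, 1.98 to 2.70). The ferritin genes were high and near equal, Fth1 at 12537 against 14605 CPM and Ftl1 at 10489 against 10896 CPM. Slc48a1 and Flvcr1, which carry haem across membranes, did not pass 2-fold (-0.28 and -0.36).

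Class II presentation genes had ratios below 0, by less than 2-fold. The study sorted for high class II protein, so these values describe cells after that sort. The libraries also held cells with little class II RNA, with a median of 2.02 class II UMIs per 10000 in the collagen-high cells. All 14 measured class II presentation genes had a log2 ratio below 0 in the pooled libraries, under the other scaling, as a mean over cells and without the cells carrying 5 or more markers of another cell type. None passed 2-fold in each library, except 1 as a mean over cells. The median was -0.46, and the summed level was 37050 CPM in the members and 52410 CPM in the others. H2-Eb1, a chain of the class II molecule I-E, stood at 5082 and 5339 CPM against 8164 and 9588 CPM (-0.73, -0.75 to -0.71). H2-Aa, a chain of I-A, stood at 7214 against 10051 CPM and Cd74, the invariant chain, at 16759 against 21935 CPM. Ciita, the master regulator of class II genes, was low in both, 18.0 against 31.6 CPM (-0.81, -1.16 to -0.47). In single members the summed class II level ran from 3.11 to 958 UMIs per 10000 with a median of 331, against a median of 508 in the others, so the groups overlap widely.

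Most monocyte and inflammatory genes had ratios below 0, and few passed 2-fold. Of 16 monocyte genes, 15 had a log2 ratio below 0 and none passed 2-fold in each library (median -0.74). As a mean over cells in place of summed UMIs, 4 of the 16 passed it. Ccr2, the receptor by which monocytes enter tissue, stood at 258 and 173 CPM in the members and 510 and 253 CPM in the others (-0.90, -0.99 to -0.81). Ly6c2, a surface marker of young monocytes, stood at 242 and 275 CPM against 550 and 220 CPM, and the libraries differed in direction. Lyz2, the common macrophage lysozyme, stood at 4669 against 7858 CPM. Its neighbour Lyz1 was called lower, at 134 and 371 CPM against 956 and 1303 CPM (-2.46, -2.56 to -2.37). Lyz1 and Lyz2 are near-identical copies whose reads can be exchanged. In Hp, the monocyte gene with the lowest ratio (-5.94), the members had 1.03 CPM and the others 63.4 CPM, but only 0.652% of thinned others carried it.

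Of 16 inflammatory genes, 2 were lower, against 0.762% of all genes, and 15 had a ratio below 0 (median -0.69). As a mean over cells, 6 of them were lower by 2-fold, and 1 was without the cells carrying 5 or more markers of another cell type. Ptgs2, the inducible cyclooxygenase, stood at 50.8 and 106 CPM in the members and 195 and 223 CPM in the others (-1.67, -1.84 to -1.50). Il1b stood at 639 and 1034 CPM against 1766 and 1986 CPM (-1.32, -1.37 to -1.27) and missed 2-fold in the suffix 2 library. Inhba, which encodes activin A, stood at 2.23 against 8.82 CPM, on 13 UMIs in the members. Osm stood at 146 against 95.2 CPM, the gene of this list above 0. Of 15 interferon response genes none passed 2-fold (median -0.45), and of 16 immediate early and heat shock genes, which can answer tissue digestion, none did (median 0.34, 12 above 0).

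**Figure D4:**
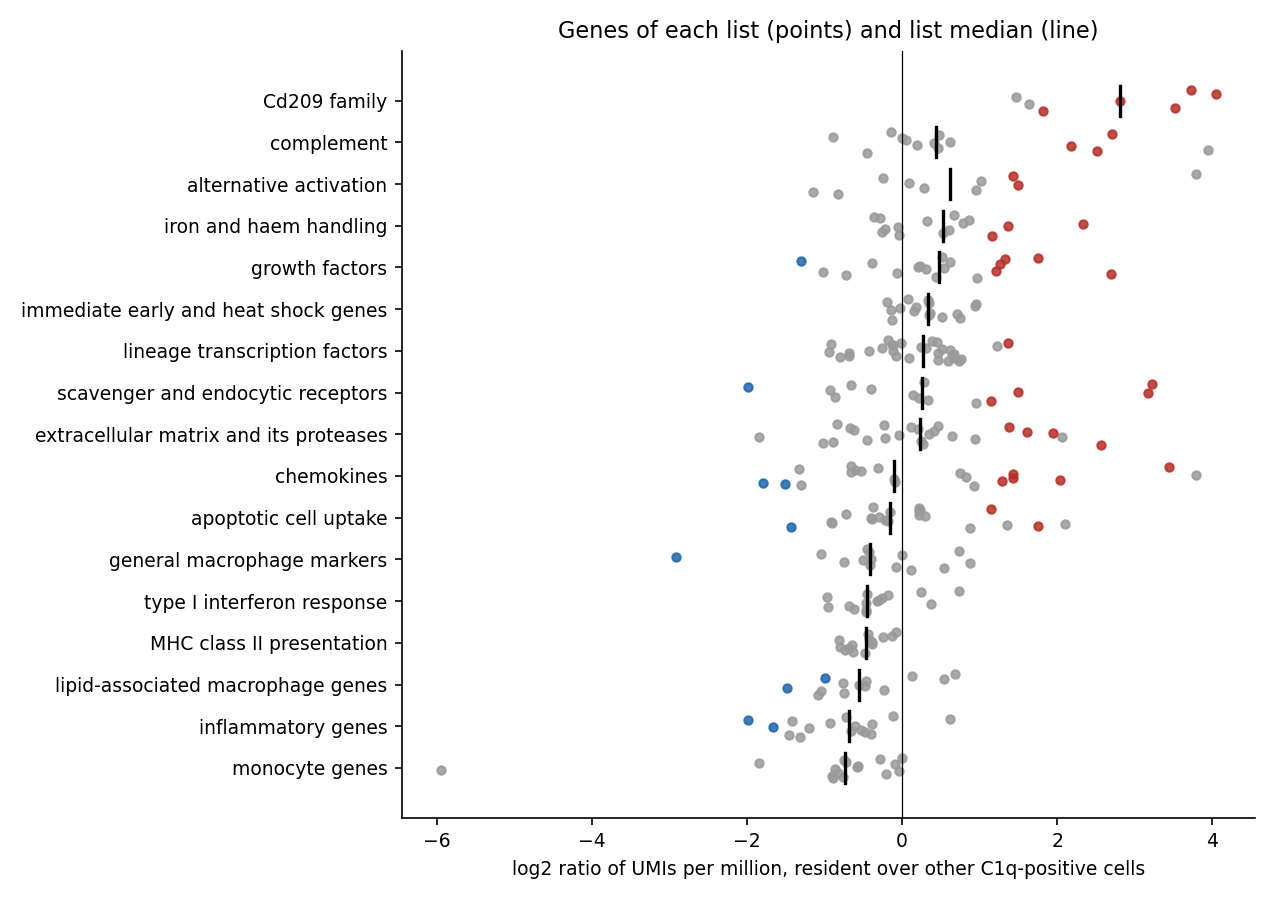
Log2 ratio of resident macrophages over other C1q-positive cells for each gene with at least 50 UMIs of 17 lists (one row per list), with the median as a black line. Red genes were higher and blue genes lower by 2-fold in each library, grey genes neither. The Cd209 family lies wholly to the right of 0 and the class II genes wholly to the left.

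Further genes called lower are given by their levels. Cx3cr1, the fractalkine receptor of monocytes and many tissue macrophages, stood at 2.69 and 4.43 CPM in the members and 26.4 and 14.4 CPM in the others (-2.92, -3.71 to -2.21). Bcl2a1b, an inhibitor of cell death, stood at 65.8 and 106 CPM against 452 and 337 CPM (-2.49, -2.64 to -2.35). Its copies Bcl2a1a (-2.89) and Bcl2a1d (-2.46) were called too, and since such copies share reads they count as 1 observation. Fabp4, a fatty acid carrier, stood at 202 and 104 CPM against 575 and 288 CPM (-1.49), with 26.0% of the members' UMIs in 1 cell. Of 13 genes of lipid-associated macrophages 2 were lower, Fabp4 and Apoc2, against 0.762% of all genes. Both calls were absent without the cells carrying 5 or more markers of another cell type. Apoe, also on that list, stood at 8091 against 5564 CPM.

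Among 30 lineage transcription factors, 1 passed 2-fold, against 1.96% of all genes called higher. Bhlhe41, a repressor known from tissue macrophages that renew themselves, stood at 24.6 against 9.53 CPM (1.37, 0.94 to 1.81). Bhlhe40 of the same list went the other way (-0.91) and was not called. Of the 30, 17 had a ratio above 0 and 13 below. Maf, a regulator of macrophage maturity, stood at 280 against 186 CPM. Runx3 stood at 50.3 against 96.9 CPM (-0.94). The general macrophage factor Spi1, which encodes PU.1, was level at 437 and 463 CPM. Of 7 Fc receptor genes 1 was higher, Fcgrt, the receptor that recycles antibody and albumin, at 406 and 231 CPM against 136 and 95.5 CPM (1.54, 1.43 to 1.66). Of 12 Toll-like receptor and co-receptor genes and 9 Ms4a genes none passed 2-fold.

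The alternative activation list was mixed. Of its 10 measured genes 2 were higher, Clec10a and Ccl24, against 1.96% of all genes. Retnla, a secreted protein induced by interleukin 4, differed between the libraries. It stood at 2526 and 1964 CPM in the members and 6540 and 1801 CPM in the others, ratios of -1.37 and 0.13. Yet it was seen in 42.6% of thinned members and 30.8% of thinned others, so a smaller share of the others held it at a higher pooled level.

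The remaining lists held few called genes, against 1.96% of all genes called higher and 0.762% called lower. Of 14 general macrophage markers 10 had a ratio below 0 (median -0.41), and Cx3cr1 was the 1 called lower. Of 12 dendritic cell genes the 1 called higher was Cd209a, and of 4 Langerhans cell genes it was Ltc4s, which makes leukotriene C4 (1.80). Of 16 lysosomal protease and lysozyme genes Lyz1 was the 1 called, and of 7 cell cycle genes none was. Of 9 vascular endothelial genes 2 were called lower, Emcn (-1.75) and Ly6c1 (-1.24). Both calls were absent without the cells carrying 5 or more markers of another cell type. Cd2, the 1 T cell gene with enough UMIs, was called lower (-2.34). Markers of other skin cells summed to low levels in members and others: 108 and 58.0 CPM for Schwann cells, 63.2 and 49.1 CPM for neutrophils, 47.6 and 37.1 CPM for keratinocytes, 30.8 and 31.7 CPM for melanocytes and 22.5 and 52.2 CPM for mast cells. The B cell list summed to 195 and 136 CPM, of which Ighm gave 188 and 129 CPM, with Cd79a and Pax5 at 0 in the members. The T cell list summed to 5.84 and 27.7 CPM. Their part in the results was not tested.

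Some genes outside the lists with high levels in the members were named after their values were seen. Selenop, a selenium carrier, stood at 4077 and 2809 CPM in the members and 1676 and 1303 CPM in the others (1.26). Dab2, an endocytic adaptor, stood at 1065 and 1197 CPM against 512 and 521 CPM (1.09), and Thbd, which encodes thrombomodulin, at 251 and 252 CPM against 52.7 and 70.7 CPM (2.13). Enpep, an aminopeptidase that processes angiotensin, is among the highest ratios by rule, at 54.0 and 27.3 CPM against 2.30 and 1.66 CPM (4.48, 3.74 to 5.34). Barx2 and Dnm1 had ratios of 4.2 and 3.76 at levels of 10.5 and 19.2 CPM.

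Members were also split by single markers of the rule, as a description. Among the 465 members with at least 2000 UMIs, thinned to that number, 125 had a UMI of Lyve1 and 340 did not. Of 2648 genes compared, 6 (0.227%) were higher and 13 (0.491%) lower by 2-fold in each library in the cells with Lyve1. C6 stood at 140 CPM with Lyve1 and 44.1 CPM without (1.67), Retnla at 4640 and 2235 CPM (1.05), and Siglech, a lectin also known from plasmacytoid dendritic cells, at 108 and 42.6 CPM (1.34). Ccl8 went the other way, 4296 CPM with and 8968 CPM without (-1.06, -1.16 to -0.97), as did Lgals3, which encodes galectin 3, at 968 and 2041 CPM (-1.08). Ly6c2 stood at 68.0 against 226 CPM (-1.74) and Vcam1, an adhesion molecule, at 24.0 against 83.8 CPM (-1.80), on 17 and 6 UMIs in the cells with Lyve1. Ckap4, Kmt5a, Dennd4c, Gnpda1, Snrpb2, Tsn and Ccdc12 were also among the lower genes, each on 5 to 11 UMIs there. A missing UMI of Lyve1 at this depth does not show that a cell lacks it.

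Split by Ednrb, 292 members with a UMI and 173 without differed in fewer genes, 5 higher (0.189%) and 4 lower (0.151%) of 2648. Csf2rb, the shared receptor chain of GM-CSF and interleukins 3 and 5, stood at 66.8 CPM with Ednrb and 243 CPM without (-1.86, -2.45 to -1.30). Lpl, lipoprotein lipase, stood at 240 and 494 CPM (-1.04), and Vcam1 at 34.2 and 124 CPM (-1.86). The higher genes, Rasa1, Smpdl3a, Csf3r, Klhl9 and Hist1h1c, each rested on 45 to 62 UMIs in the cells with Ednrb and 11 to 16 in those without. Vcam1 was lower in both splits, and the splits share cells: Lyve1 stood at 257 CPM in members with Ednrb and 130 CPM in those without.

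Along the number of markers seen in 2000 UMIs, from 0 to 6 of 6 over all C1q-positive cells, genes outside the rule took different courses. Mrc1 went from 720 CPM in the 291 cells with no marker to 2143 CPM at 3 markers and 3204 CPM in the 27 cells with all 6, and F13a1 from 369 to 2574 CPM. C4b went from 41.2 to 778 CPM. Ccl8 was 411 CPM with none, 10000 CPM at 3 markers and 7352 CPM at 6. Il1b went from 2052 CPM to 333 CPM at 3 markers and 444 CPM at 6, Lyz1 from 1246 CPM to 0 UMIs in the 27 cells with 6 (95% upper limit 68.3 CPM), and Cd74 from 23105 to 10352 CPM. Retnla went from 5875 CPM to 1653 CPM at 2 markers and was 6833 CPM at 6. Ccl8, Il1b and Retnla thus did not run evenly along the number of markers, while Mrc1, F13a1 and C4b were highest in the cells with all 6.

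**Figure D5:**
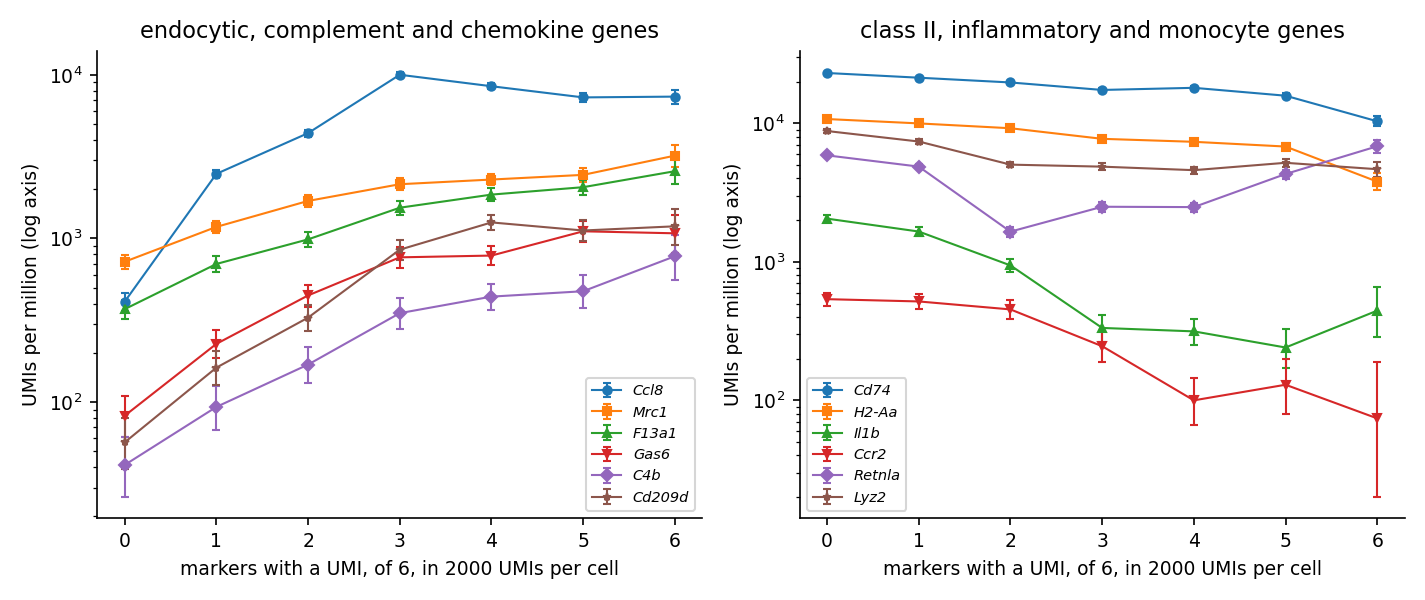
Levels (CPM, log axis) of 12 genes in C1q-positive cells grouped by how many of the 6 markers had a UMI after thinning to 2000 UMIs (x axis). Bars are 95% Poisson intervals, and the last group has 27 cells. On the left all genes are higher at 3 markers than at 0, and Ccl8 is highest at 3. On the right Retnla is lowest at 2 markers.

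The cells next to the thresholds are given as a description. The 154 members with exactly 4 markers had 6772 CPM of Ccl8, 1707 CPM of Mrc1 and 7936 CPM of H2-Aa. The 150 cells with exactly 3 markers, just outside, had 3347, 1312 and 8881 CPM. Near the C1q limit lay 7 cells inside (15 to 20 per 10000) and 5 outside (10 to 15 per 10000). Those 7 had a median of 26926 UMIs, with Folr2 at 147 CPM, Ccl8 at 450 CPM and Il1b at 2123 CPM. The 5 outside had a median of 36020 UMIs, with 118, 734 and 2768 CPM of these genes. Near the collagen limit lay 50 cells inside (10 to 20 per 10000) and 15 outside (20 to 40 per 10000), with Folr2 at 697 and 772 CPM.

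A narrower comparison took as the other side C1q-positive non-members with UMIs of both Ly6c2 and Plac8, genes of young monocytes. There were 124 such cells, 109 in the suffix 1 and 15 in the suffix 2 library, and 83 members also met that gate. Of 7901 genes, 274 (3.47%) were higher in the members by 2-fold in each library and 194 (2.46%) lower. Cd163, used by the rule, stood at 573 against 39.7 CPM. Cd209b stood at 194 against 6.27 CPM (4.95), Cd209d at 816 against 36.2 CPM (4.50), Ccl24 at 399 against 22.3 CPM (4.16, 3.66 to 4.72) and C6 at 68.5 against 0.696 CPM (6.62), the last on 1 UMI in the gated cells.

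Of 15 interferon response genes, 4 were lower in the members than in these cells, against 2.46% of all genes, and none higher. Their median log2 ratio was -1.74 against -0.13 over all genes. The 15 gated cells of the suffix 2 library limit these calls. Genes named next come from all 194 genes lower in the members, not from the interferon list alone. They were named after their values were seen. Irf7, a regulator of interferon genes, stood at 179 against 859 CPM (-2.26, -2.38 to -2.14) and Ms4a4c at 169 against 864 CPM (-2.36). Ly6a stood at 189 against 887 CPM (-2.23) and Axl at 42.3 against 183 CPM (-2.12). H2-Aa, lower in the members than in the others as a whole, was not lower here, 7214 against 5803 CPM. Gates on Spp1 with Gpnmb (7 cells, none in the suffix 2 library) and on Cd209a with Flt3 or Kmo (23 cells) were too small to compare over all genes, and 19 and 67 members met them. In the 23 cells Cd209e stood at 141 CPM, against 56.9 CPM in the members (-1.31, -1.77 to -0.83), and Cd209a at 575 against 765 CPM. Cd209d stood at 244 against 816 CPM, Cd209b at 9.64 against 194 CPM and Cd209g at 3.21 against 208 CPM in the same cells.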

How the data were processed

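UMI counts of single cells from 2 libraries were analysed. The authors deposited them as 1 matrix of raw UMI counts per gene and barcode, without normalization, made with Cell Ranger 4.0.0 on mm10 per the submitters' processing notes. Barcode filtering before deposit is not given in the sources used. Members and gene lists were chosen with earlier results of these data known. Of 5257 barcodes, 1149 exceeded the mitochondrial limit, 33 of which met the rule otherwise. UMIs were summed per group, with exact Poisson intervals for levels and exact conditional binomial intervals for ratios (Python 3.11.15, numpy 2.4.6, scipy 1.17.1), and a sum of 0 was replaced by 3 counts. No ratio was given when both sums were 3 or less. Shares of cells came from cells thinned to 2000 UMIs (seed 1), which left out 7 members and 35 other C1q-positive cells. Scrublet, run in scanpy 1.11.5 per library, called 0 and 6 doublets, too few to count as doublet removal. No cell was removed for it, and cells with a score of 0.2 or more (5 members, 18 others) were left out in an alternative. Positions are those of GENCODE vM21 (32158 of 32285 identifiers matched), promoters those of RefSeq. Genes named are the rule genes, in each of 37 lists the 2 highest and 2 lowest ratios, and the 25 highest and 15 lowest called genes without unnamed models, mitochondrial and ribosomal genes. Further genes of the lists and those described along marker number, splits and gates were named after their values were seen. The scripts were tested on simulated data. Some genes of the lists are not reported here.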

Additional observations from a re-analysis of the deposited data

How the results depend on the processing

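The share of resident macrophages among C1q-positive cells (42.1%) changed with the filter and the number of markers asked for: it was 31.1% under the stricter filter, which changed the limits on genes, UMIs and mitochondrial share together, 55.5% with at least 3 and 28.4% with at least 5 of 6 markers, 22.8% with the rule applied after thinning to 2000 UMIs, and 37.0% in the library with suffix 2 alone. The count of higher genes (178) became 111 with at least 5 markers, 288 against cells with 0 or 1 marker, 95 among genes with at least 200 UMIs and 285 when 2-fold was asked of the pooled libraries only. The count of lower genes (69) became 45 under the stricter filter, 118 with C1q of 30 per 10000, 350 after thinning, 191 as a mean over cells, 115, 27 and 124 with at least 20, 200 and 1 UMIs per gene, and 183 in the pooled libraries only. The other alternatives kept these counts within 1.5 times, but not always the same genes. Of the lower genes, 29 of 61 with at least 5 markers were also called in the main setting. Against cells with 0 or 1 marker it was 36 of 73. Of the higher genes under the stricter filter it was 99 of 133. The looser filter shared more, 161 of 174 higher and 61 of 70 lower genes. Among called genes, the ratios that changed sign were those of Sox17 (1.17) and Ifnb1 (0.53) with at least 3 markers, Nts (-1.46) and Fxyd6 (-1.45) after thinning, and Fxyd6 (-0.29) and Ly6c1 (0.12) without cells carrying 5 or more markers of another cell type. Of 150 named genes with a ratio in both libraries, 28 had opposite signs in the libraries, none of them called. The causes were not tested. No paired analysis was possible because each age has 1 library and no label ties a barcode suffix to an age. After thinning 243 cells met the rule, 240 of them members.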
